A study of Mus musculus with 2 samples.

Results

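The genes described here are *Ctcf*, 5 genes for subunits of the cohesin complex (*Rad21*, *Smc1a*, *Smc3*, *Stag1* and *Stag2*) and 3 genes for proteins that load or regulate it (*Nipbl*, *Pds5a* and *Pds5b*). They were taken by symbol, as the proteins named in connection with domain boundaries and their regulators, and not by a measured value. All 9 were found, with 42 of the 64053 transcripts and 9 of the 23157 genes in the table. Distal forelimbs of E12.5 mouse embryos of the strain given as C57Bl6CBAF1 were used for poly(A) RNA-seq, with 1 library from wild type and 1 from embryos carrying the *HoxD* Inv(TpSB1-Itga6) allele, which the study describes as homozygous. This allele turns around a segment of 2.4 Mb between the breakpoints *TpSB1* and *Itga6* on the centromeric side of the *HoxD* cluster, and the labels name no treatment. Each library came from 3 pairs of forelimbs according to the labels, so that each genotype is 1 pool and no difference below has a replicate check.

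CTCF is a zinc finger protein that binds DNA at defined sites, many of which lie at the borders of topologically associating domains (TADs). Cohesin is a ring of SMC1A, SMC3 and RAD21, to which either STAG1 or STAG2 is bound. The ring is loaded onto chromatin by NIPBL, is thought to extrude loops of DNA until it meets CTCF, and is stabilised or released with the help of PDS5A and PDS5B. Haploinsufficiency of NIPBL causes Cornelia de Lange syndrome, in which limb defects are frequent. The inversion moves CTCF sites and enhancers in *cis* on chromosome 2, whereas none of the 9 genes lies on that chromosome. The comparison therefore addressed whether the mRNAs of this machinery differed between the limbs in which the re-organized domains were studied and wild-type limbs.

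Values are given as reads, or as "normalized reads", which are reads corrected by one factor per library, and are summed over the transcripts of a gene. The recovered reads totalled 9280660 (wild type) and 9466154 (inversion). Intervals are exact 95% Clopper-Pearson or Poisson intervals of the reads. These reflect counting error alone and thus set the 2 libraries, not the genotypes, against each other. With no proximal library for comparison, the label of distal limb could not be checked with the 6 mesenchyme markers. All of these markers had reads, from 835 (*Msx2*) to 3857 (*Prrx1*) in wild type and from 821 to 3913 in the inversion. One of them, *Hoxd13*, is itself a target of the rearranged regulatory domain and had 2264 and 1522 reads. Markers of other cells were also present in both libraries, with 3201 and 2762 reads for 3 ectoderm genes, 2872 and 2774 for 3 endothelial genes, 15206 and 12994 for 3 red cell genes, 187 and 228 for 3 muscle precursor genes and 659 and 551 for the proximal genes *Meis1* and *Meis2*. Their part in the values below was not tested. In tissue of mixed cells, fewer cells of a type and less RNA per cell cannot be told apart.

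All 9 genes had many reads in both libraries and none differed by 1.5-fold. The summed values ran from 1833 (*Stag1*) to 2669 (*Smc1a*) normalized reads in wild type, above those of 94.6% to 98.1% of the 16756 genes whose mean reached 10 normalized reads. In the inversion library they ran from 1741 (*Stag1*) to 2466 (*Smc1a*). These ranks are of reads without a correction for length, and long transcripts yield more reads. The coding transcript with most reads was 3782 nt (*Ctcf*) to 9423 nt (*Nipbl*) long in the members. A rank by reads per kb over all genes was not computed. With a pseudocount of 1, log2 ratios (inversion over wild type) were between -0.22 and 0.10, with a median of -0.11. The median was -0.02 over the 16756 genes, and -0.05 over the 596 genes whose mean lay within the range of the 9, from 1787 to 2568 normalized reads.

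The number of members changed at least 2-fold was 0 of 9, against 4.47% of all genes past the filter. It was also 0 of 9 at 1.5-fold, against 11.4% of all genes, but only 1.51% of the genes in the same range of means passed that threshold. Of the members, 7 were lower and 2 higher in the inversion library. The counting interval lay below 0 for 5 members and above 0 for 1 (*Pds5b*), and held 0 for 3. The interval lay below 0 for 13.0% and above 0 for 16.7% of all genes past the filter. Genes with many reads have narrow intervals, and within the members' range of means these shares were 34.4% and 14.8%. With 9 genes, 5 below 0 is a description of these libraries and not a result about the group.

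**Figure D1:**
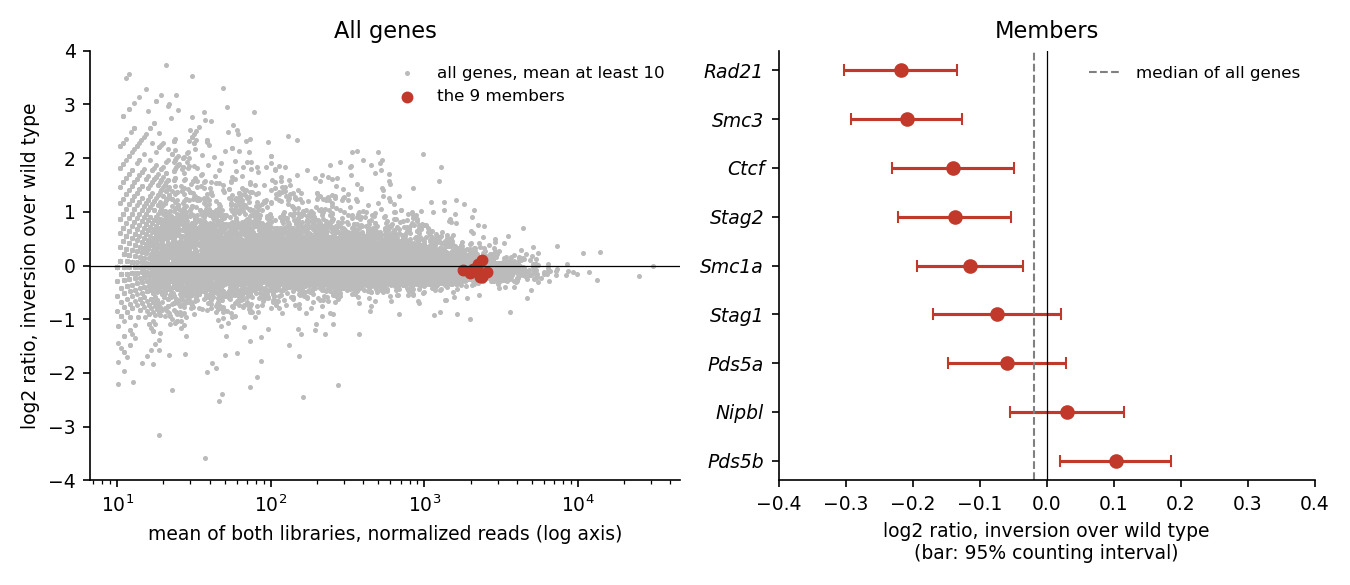
Left, log2 ratios (inversion over wild type) against the mean of both libraries in normalized reads (log axis), for all genes whose mean reached 10 (grey; 3 genes lie beyond the axis limits of 4) and the 9 members (red). Right, the ratio of each member with its 95% counting interval; the members lie between -0.22 (*Rad21*) and 0.10 (*Pds5b*).

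*Ctcf* (chromosome 8, 105636568 to 105682922, GRCm38) had 2070 normalized reads in wild-type limbs and 1878 in the inversion. Its log2 ratio was -0.14, with an interval of -0.23 to -0.05, a difference of -9.24%. Thus the mRNA of the boundary factor was slightly lower in the inversion library, by far less than 1.5-fold. The difference exceeded counting error against a log2 ratio of 0. The interval, whose upper bound was -0.0492, however held -0.0548, the median of genes in the members' range of means. Those of *Smc1a* and *Stag2* held this median too, whereas those of *Rad21* and *Smc3* lay below it.

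Among the genes of the ring, *Rad21* and *Smc3* had the lowest log2 ratios of the 9. *Rad21* (chromosome 15, 51962240 to 51991747), which encodes the kleisin subunit that closes the ring, had 2459 normalized reads in wild-type limbs and 2113 in the inversion (log2 ratio -0.22, interval -0.30 to -0.13). *Smc3* (chromosome 19, 53600398 to 53645833), for one of the long ATPase arms, had 2525 and 2185 (log2 ratio -0.21, interval -0.29 to -0.13). *Smc1a* (chromosome X, 152016428 to 152062694), for the other arm, had 2669 and 2466 (log2 ratio -0.11, interval -0.19 to -0.03). All 3 ring genes were thus lower in the inversion library, with differences of -14.0%, -13.5% and -7.61%, respectively.

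The STAG proteins connect the ring to CTCF and are alternative subunits. *Stag2* (chromosome X, 42149317 to 42277185) had 2368 normalized reads in wild-type limbs and 2153 in the inversion (log2 ratio -0.14, interval -0.22 to -0.05). *Stag1* (chromosome 9, 100643448 to 100958545) had 1833 and 1741, with a log2 ratio of -0.07 whose interval of -0.17 to 0.02 holds 0, so that a difference was not detectable at this depth. *Stag2* had more reads than *Stag1* in both libraries. The ratio of their reads was 1.29 (interval 1.21 to 1.37) in wild type and 1.24 (1.16 to 1.32) in the inversion, and these intervals overlap.

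*Smc1a* and *Stag2* lie on the X chromosome, and the pools differed in markers of embryo sex. *Xist*, transcribed from the inactive X of females, had 2607 reads in wild-type limbs and 13 in the inversion, whereas 4 Y-linked genes summed to 3.33-fold more normalized reads in the inversion. The 4 listed X-linked genes that escape X inactivation, which females express from both copies, all had intervals below 0, from -0.28 for *Kdm5c* to -0.13 for *Ddx3x*. Intervals below 0 were found for 13.0% of all genes past the filter and 34.4% of those in the members' range of means. The median of 839 X-linked genes other than *Xist* and *Tsix* was -0.05. Sex and genotype cannot be told apart in these pools, for the 2 X-linked members or for the other 7.

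Of the 3 genes for regulators of cohesin, 2 were slightly higher and 1 slightly lower in the inversion library. *Nipbl* (chromosome 15, 8290617 to 8444463), for the loader, had 2205 normalized reads in wild-type limbs and 2252 in the inversion, a log2 ratio of 0.03 (interval -0.06 to 0.12). *Pds5a* (chromosome 5, 65615260 to 65697856) had 2126 and 2041 (log2 ratio -0.06, interval -0.15 to 0.03), so that neither differed by more than counting error. Its paralog *Pds5b* (chromosome 5, 150673739 to 150810690) had 2274 and 2442 and was the only member with an interval above 0 (log2 ratio 0.10, interval 0.02 to 0.19). When each gene was represented by its most abundant transcript alone, the interval of *Pds5b* held 0.

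Pairs of members were compared within each library, the pairs being chosen after the values were seen. The ratio of *Nipbl* to *Rad21* reads was 0.897 (interval 0.846 to 0.951) in wild type and 1.07 (1.004 to 1.13) in the inversion. These intervals do not overlap. Among the members *Rad21* had the lowest log2 ratio and *Nipbl* one above 0, so the choice of this pair favours such a gap. The share of other pairs with such a gap was not computed, and nothing about loader and ring is read from it. The ratio of *Pds5a* to *Pds5b* reads was 0.935 (0.881 to 0.993) and 0.836 (0.788 to 0.886), with intervals that overlap narrowly. *Rad21* and *Smc3* kept nearly the same ratio, 0.974 (0.920 to 1.03) in wild type and 0.967 (0.911 to 1.03) in the inversion.

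Levels of different genes were compared as the reads of all transcripts of a gene per kilobase of its coding transcript with most reads. In wild type, 100% of the reads of *Rad21* and *Nipbl* were on transcripts called protein-coding. For *Smc1a* this was 52.0% and for *Smc3* 46.3%. A further 46.8% of the *Smc3* reads were on a transcript that is not in GENCODE M21, so that its type is not known here. The order below depends on this choice, and levels from coding reads alone were not computed. In wild type, *Rad21* was highest with 621 normalized reads per kb (interval 597 to 647). It was followed by *Smc1a* (569), *Ctcf* (547), *Smc3* (521) and *Pds5a* (513), among which neighbours had overlapping intervals. A second tier held *Stag2* (398), *Pds5b* (307) and *Stag1* (296), and the last 2 did not differ beyond their intervals. *Nipbl* was lowest, with 234 (interval 224 to 244).

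In the inversion library *Rad21* (534) and *Smc1a* (526) had overlapping intervals at the top, and *Nipbl* was again lowest with 239 normalized reads per kb. *Ctcf* stood at 497, *Stag2* at 362, *Pds5b* at 329 and *Stag1* at 281. *Smc3* (450.3) was below *Pds5a* (492) there, with intervals of 432 to 469 and 471 to 514. The place of *Pds5a* depends on the length used, since the annotation also holds a coding transcript of 8934 nt that the table does not list. With that length its level would be 238 in wild type and 228 in the inversion, close to *Nipbl*.

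**Figure D2:**
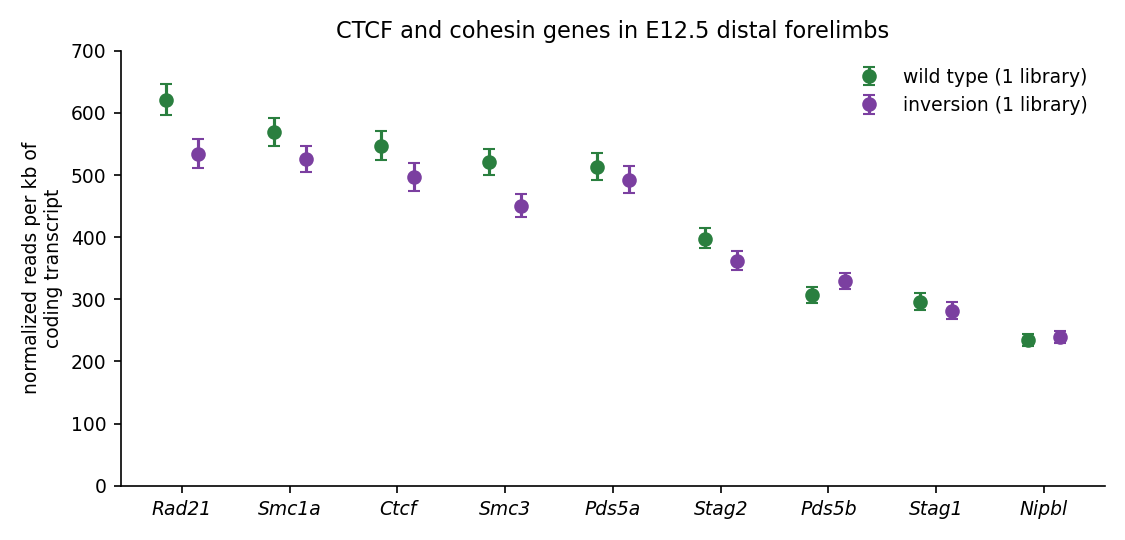
Normalized reads of all transcripts of each member per kb of its leading coding transcript, ordered by the wild-type level, with wild type in green and the inversion in purple. Points are 1 library each and bars are exact 95% Poisson intervals of the reads; *Rad21* is highest and *Nipbl* lowest in both libraries.

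The reads of each gene were next followed over its transcripts. *Rad21* and *Nipbl* are listed with 1 transcript each, so that nothing can be said on their isoforms. For the other 7 genes, 2 to 9 transcripts are listed. Over all members, 77.1% of the reads in both libraries were assigned to 16 transcripts that GENCODE M21 calls protein-coding. Retained-intron transcripts took 6.22% in wild type and 6.65% in the inversion, compared with 5.99% and 7.12% over the whole table. For the 40 transcripts of the 7 genes, 0 had shares of the gene's reads whose intervals did not overlap between the libraries. The background was 9.93% of the 49467 transcripts of genes with several that passed the filter, and 15.0% of the 2863 such transcripts within the members' range of means.

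The single coding transcript of *Ctcf*, Ctcf-201 (3782 nt), took 77.9% of the reads of the gene in wild type (interval 76.0% to 79.7%) and 78.0% in the inversion. The other 5 transcripts are non-coding and short. In percentage points the retained-intron one, Ctcf-206, differed most, with 4.60% and 6.57% and intervals that overlap narrowly (3.73% to 5.60% and 5.50% to 7.78%). By log2 ratio Ctcf-205 differed most, with only 22 and 9 reads (-1.24, interval -2.63 to -0.15). For *Smc1a*, the coding transcript Smc1a-201 had 52.0% (wild type) and 51.7% (inversion), whereas Smc1a-206 (1824 nt), which is annotated as a target of nonsense-mediated decay, had 26.9% and 26.8%, respectively. The 4 retained-intron fragments of *Smc1a* summed to 21.1% and 21.5%. The reads of *Smc1a* were thus divided between coding and other transcripts in the same way in both libraries.

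Some pairs of transcripts had almost the same number of reads. The leading 2 transcripts of *Smc3* had 1166 and 1154 reads in wild-type limbs and 1019 and 1020 in the inversion, so that the leading one was a different transcript in each library. The first of them is not in GENCODE M21 and the other is Smc3-201. *Smc3* was the only 1 of the 7 members with several transcripts whose leading transcript differed, against 13.4% of the 10829 such genes past the filter. For *Pds5b*, Pds5b-201 had 712 and Pds5b-202 had 708 reads in wild type, and 781 and 779 in the inversion. These 2 transcripts share 7306 exonic bases, which is 99.9% of the shorter one. Stag1-206 and Stag1-201 had 694 and 678 reads in wild type and 665 and 651 in the inversion. They share 100% of the shorter one. Reads of such near-identical transcripts cannot be told apart by most of their length. Whether the authors divided them or counted them for each transcript is not given in the sources used here. If they were counted for each, the sums and levels per kb of such genes would be too high and their intervals too narrow.

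For *Pds5a*, Pds5a-201 had 68.6% of the reads in wild-type limbs and 66.6% in the inversion, and the rest was assigned to a transcript that is not in GENCODE M21. The part of the reads that would have to change transcript to turn one library's distribution into the other was between 0.535% (*Pds5b*) and 3.01% (*Stag2*) for the 7 genes. The median of this part was 4.06% over the 10829 genes with several transcripts, and 2.26% over the 500 of them within the members' range of means. The distribution of reads over transcripts thus differed little between the libraries for these genes.

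**Figure D3:**
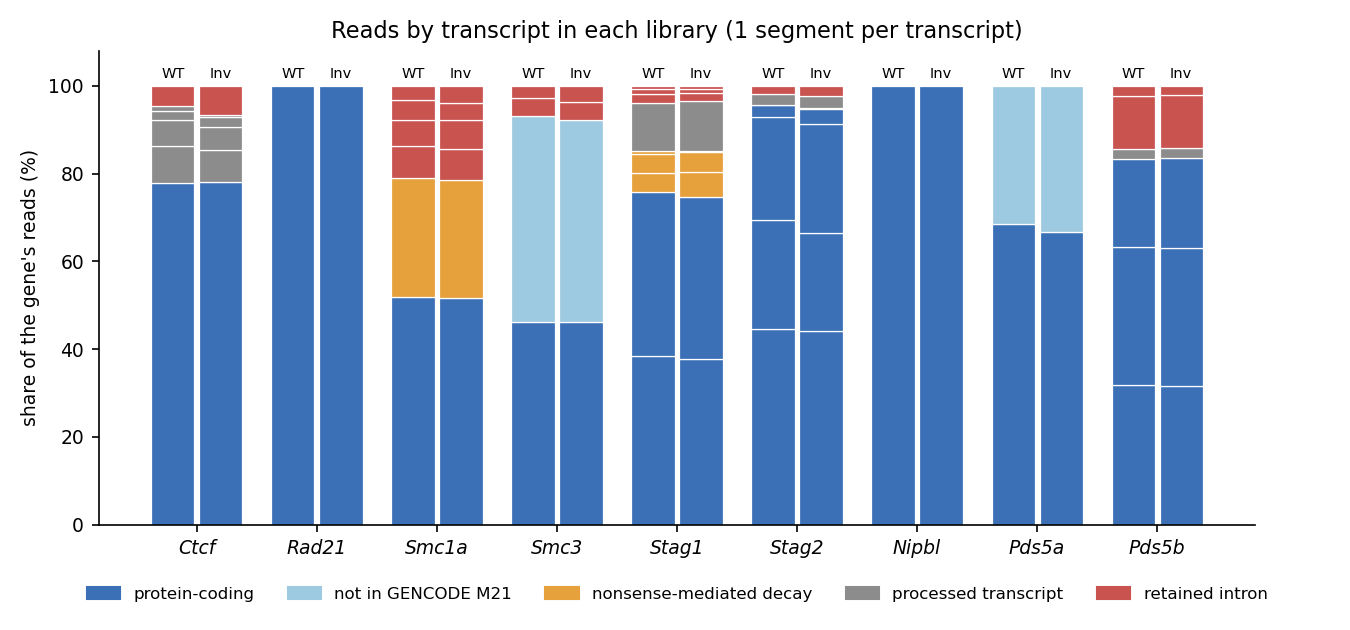
Share of the reads of each gene (%) by transcript, with 1 segment per transcript and 1 bar per library (WT, wild type; Inv, inversion), coloured by the transcript type in GENCODE M21. Bars of the same gene have nearly the same segments, for example 77.9% and 78.0% for the coding transcript of *Ctcf*.

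*Stag1* and *Stag2* each have a coding exon near the 3' end that is present in one of the long coding transcripts and skipped in others. In both genes it is exon 31 of 34 and 111 nt long, a multiple of 3, so that skipping it keeps the reading frame. In *Stag1* it lies at chr9:100953486-100953596 and in *Stag2* at chrX:42266366-42266476 (GRCm38, plus strand). The sequences are shown because Stag1-206 and Stag2-203 have the exon, whereas Stag1-201, Stag2-201 and Stag2-202 skip it. The exon is not their only difference, as Stag1-206 has 6186 nt against 5909 for Stag1-201. Likewise, Stag2-203 has 6171 nt against 5955 for Stag2-202. Capitals mark the 51 of 111 positions (45.9%) at which both exons have the same base when aligned without gaps:
Stag1 exon 31: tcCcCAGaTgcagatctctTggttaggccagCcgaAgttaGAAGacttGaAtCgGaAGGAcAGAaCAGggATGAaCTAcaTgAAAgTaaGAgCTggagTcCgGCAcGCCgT
Stag2 exon 31: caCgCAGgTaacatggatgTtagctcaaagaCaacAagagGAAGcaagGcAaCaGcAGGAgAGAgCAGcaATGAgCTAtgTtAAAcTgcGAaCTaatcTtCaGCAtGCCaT

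The paralogs differed in the reads assigned to transcripts with this exon, which was chosen for description after the transcript values were seen. Of the reads of long coding transcripts of *Stag1*, 694 were given to Stag1-206, with the exon, and 678 to Stag1-201, without it, in wild type. The share with the exon was 50.6% (interval 47.9% to 53.3%), and 50.5% (47.8% to 53.3%) in the inversion with 665 and 651 reads. For *Stag2*, 547 reads were given to Stag2-203, with the exon, and 1625 to Stag2-201 and Stag2-202, without it. This share was 25.2% (23.4% to 27.1%) in wild type and 27.2% (25.3% to 29.2%) in the inversion. The intervals of each gene overlapped between the libraries, whereas those of *Stag1* and *Stag2* were apart in both. These shares rest on the authors' assignment, and Stag1-201 and Stag2-202 lie wholly within the bases of the transcript that has the exon. In *Stag1*, 1 transcript with the exon stands against 1 without it, and in *Stag2* 1 stands against 2. The intervals do not cover how reads were assigned among them, so the gap between the paralogs may depend on this. Stag1-206 and Stag1-201 are also a pair with almost the same number of reads. The part of read assignment in this near-equality was not tested. With transcripts of all types, the *Stag1* share was 56.3% in wild type and 56.9% in the inversion.

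Other genes of the cohesin cycle were taken from a list of 14 symbols, some of them alternative names of the same gene, of which 10 were found and passed the filter. Their median log2 ratio was -0.11, close to that of the members, with 8 lower and 2 higher and 0 changed 1.5-fold. *Cdca5*, which encodes sororin, a protein that protects cohesin after replication, was lowest with 587 and 479 reads (log2 ratio -0.33, interval -0.51 to -0.15) and had the only interval below 0 among these 10. *Mau2*, for the partner of NIPBL in the loader, was highest with 1141 and 1271 reads (log2 ratio 0.12), with an interval whose lower bound was 0.0031.

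The remaining 8 genes of this list had intervals that hold 0. *Wapal*, which encodes the factor that releases cohesin from DNA, had 1979 and 1954 reads (log2 ratio -0.05). The acetyltransferase genes *Esco1* and *Esco2* were at -0.18 and -0.08, the deacetylase gene *Hdac8* at -0.15, the shugoshin genes *Sgol1* and *Sgol2* at -0.09 and -0.13, the securin gene *Pttg1* at -0.17, and *Espl1*, for separase, which cleaves RAD21, at 0.10.

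Of 6 symbols for germ-line paralogs of the members, 4 were found, and 2 of these had more reads in the inversion library. *Stag3*, for the meiotic STAG subunit, had 28 reads in wild-type limbs and 112 in the inversion, a log2 ratio of 1.93 (interval 1.36 to 2.62). *Rec8*, for the meiotic kleisin, had 156 and 348 reads (log2 ratio 1.12, interval 0.84 to 1.40). Both were more than 2-fold higher in the inversion library, as were 3.71% of the 4880 genes with means of 50 to 300 normalized reads, a range set after seeing the data. Both had far fewer reads than their somatic paralogs *Stag1*, *Stag2* and *Rad21*. *Smc1b* had 11 and 10 reads (log2 ratio -0.16, interval -1.57 to 1.20), and *Ctcfl*, the paralog of *Ctcf*, 0 and 1, which is under the limit of 3 that a count of 0 allows.

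The leading transcript of *Rec8*, Rec8-201, is coding and had 124 and 265 reads, so that its share of 79.5% and 76.1% was similar. For *Stag3*, the 2 transcripts with most reads are retained-intron ones, with 12 and 38 reads for Stag3-206 and 10 and 40 for Stag3-203, while the longest coding one, Stag3-209, had 0 and 13. The germ cell genes *Dazl*, *Ddx4* and *Sycp3* summed to 18 reads in wild-type limbs and 26 in inversion limbs, and *Dazl* had 2 in each. The part of germ cells, of the larger retained-intron share of the inversion library (7.12% against 5.99%) or of embryo sex in the values of *Stag3* and *Rec8* was not tested.

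Genes of the other SMC complexes, of proliferation and of other loop proteins are given for comparison. Of 8 condensin genes, which compact chromosomes for mitosis, 7 were lower and 6 had intervals below 0 (median log2 ratio -0.15), from *Smc2* at -0.28 to *Ncaph2* at 0.04. The 6 genes of the SMC5/6 complex, which acts in DNA repair, had a median of -0.08, from *Nsmce1* at -0.33 to *Smc5* at 0.10. Of 8 proliferation genes, 6 had intervals below 0 (median -0.16), from *Top2a* at -0.28 to *Ccnb1* at 0.18. The 7 genes for other DNA-binding or associated proteins at loops and boundaries had a median of 0.03, with 4 higher and 3 lower, from *Zfp143* at -0.11 to *Ldb1* at 0.19. None of the genes of these 4 lists changed 1.5-fold. These counts of intervals below 0 stand against 13.0% of all genes past the filter and 34.4% of genes with means like those of the members, and nothing particular to a list is read from them. With protein-coding transcripts only, the median was -0.24 for proliferation and -0.15 for SMC5/6, against -0.12 for the members. The median of the loop proteins was 0.02 with upper quartile scaling. The part of proliferation in the values of *Rad21*, *Smc3* and *Ctcf* was not tested.

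**Figure D4:**
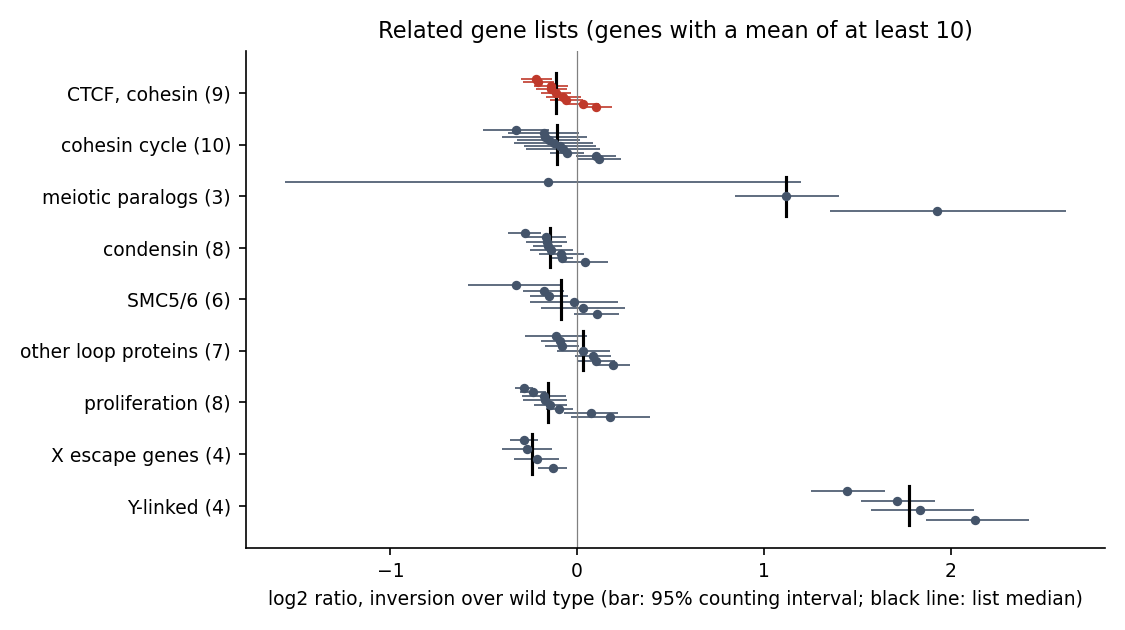
Log2 ratio (inversion over wild type) for the genes of each list that passed the filter on the mean (number of genes in brackets), with 95% counting intervals and the list median as a black line. The cohesin, condensin, SMC5/6 and proliferation lists lie around medians of -0.16 to -0.08, whereas *Rec8*, *Stag3* and the Y-linked genes are higher in the inversion.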

How the data were processed

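Total RNA of E12.5 distal forelimbs was sequenced from 1 pool per genotype with a stranded poly(A) protocol. The authors mapped the reads to NCBIM37 (mm9), with Bowtie2 named in the submitters' processing notes, and counted them per transcript on the HTSstation platform. The counting tool and its use of strand are not given in the sources used here. The deposited table holds, as signal, reads per transcript divided by a size factor of each library by the authors, with 0.5 written for no reads. The study names RPKM, whereas the value of 1 read was the same for transcripts of any length. The table also holds the authors' mean of both libraries, ratio (fold change), log2 fold change, p-value and adjusted p-value, deposited by the authors and not used here. The wild-type column is named wtDFL and its sample wtFL.

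Whole reads were recovered for 100% of the values above 0.5, within 0.1 reads. With 1 library per genotype no count model could be fitted. Transcripts were summed by symbol and chromosome, and log2 ratios took a pseudocount of 1, which understates changes of low genes, and a minimum mean of 10 for sets of genes. Transcript types, lengths and GRCm38 positions come from GENCODE M21, matched by transcript identifier for 40 of the 42 transcripts; no coordinate was converted. Exon sequences were cut from its transcript sequences. *Ctcf*, *Stag2* and *Pds5a* each share exonic bases with 1 or 2 genes on the opposite strand, from 0.342% to 7.61% of their exonic bases per overlapping gene. The members and lists were chosen with earlier results of these data known. All members were named, and of the first 2 other lists every gene except 1, which was left out of its list and is not reported here, of the rest the extremes and genes changed 1.5-fold. The steps were tested on simulated data. Analyses were run with scipy 1.17.1, pandas 2.3.3 and numpy 2.4.6 in Python 3.11.15, and plots with matplotlib 3.10.9.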

Additional observations from a re-analysis of the deposited data

How the results depend on the processing

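No paired analysis was possible because wild type and inversion have 1 library each. The median log2 ratio of the 9 members was -0.11 and stayed between -0.13 and -0.11 under total scaling, upper quartile scaling, pseudocounts of 5 and 0.1, the transcript with the highest mean and protein-coding transcripts only. Under these 6 alternatives 0 members changed 1.5-fold, and each of 54 values for single members stayed within its counting interval. The 119 list medians, also run without the filter and with a mean of at least 100, stayed between the medians of their genes' interval bounds. Within these, the proliferation median went from -0.16 to -0.25 with the transcript of highest mean and -0.24 with protein-coding transcripts only, that of SMC5/6 from -0.08 to -0.15 with the latter, that of the proximal limb from -0.24 to -0.38 with the former, and that of the loop proteins from 0.03 to 0.02 with upper quartile scaling. Under the 4 alternatives that leave the pseudocount alone, 5 members had intervals below 0. With the transcript of highest mean, 0 had one above 0, against 1 otherwise, as fewer reads of *Pds5b* are used. With protein-coding transcripts only, the share of the leading transcript rose by construction in wild type and the inversion alike. It rose to 100% for *Ctcf*, *Smc1a* and *Pds5a*, to 50.6% and 50.5% for *Stag1*, to 38.1% and 37.8% for *Pds5b*, and to 46.54% and 46.45% for *Stag2*. Of these shares, only that of *Stag2* in wild type stayed within its interval, whose upper bound was 46.59%. The scalings shift all ratios by 0.0075 and -0.0179, and pseudocounts act little on genes with as many reads as the members. These settings could thus hardly move a member out of its interval. The transcript settings cannot change *Rad21* and *Nipbl*, which have 1 transcript each. Depth limits *Smc1b* and *Ctcfl*, and single libraries limit every comparison.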
